A study of Mus musculus with 7 samples.

Results

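The transcriptome described here is that of control SMB21 cells, a mouse medulloblastoma line, in culture and with no gene of the cell targeted. Its members are the 2 GFP control libraries of the 7 libraries in the series, chosen by their label; the other groups are 3 Ofd1 CRISPR and 2 Kif3a CRISPR libraries. The series text names 3 replicates for GFP, and 2 are analysed here. All groups share the Ptch mutant background (strain label Ptch1tm1Mps/J, age label Adult), growth as neurospheres in serum-free medium with B27, and infection with lentiCRISPR, a lentiviral vector that carries Cas9 and a guide RNA, 2 weeks before RNA extraction. In the control the guide is directed against GFP, so these are infected cells and not untouched ones, and the sources used here do not give whether pools or clones were sequenced. SMB21 is a single tumour line, so the values describe that line and not Hedgehog medulloblastoma in general. The labels call the replicates biological. The 2 values given for a gene show the spread between the 2 libraries, and the intervals of ratios below cover counting error only.

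Medulloblastoma of the Hedgehog type arises from granule neuron progenitors of the cerebellum. In these cells Sonic hedgehog, made by Purkinje cells, binds the receptor Patched and thereby releases Smoothened, which acts through the primary cilium to keep Gli proteins active. Loss of Ptch1 removes the brake on Smoothened, so the pathway can run without ligand. Gli1, Ptch1 and Hhip are transcribed in response and serve as readouts of the pathway.

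The libraries held 20690243 counts (replicate 1) and 20302206 counts (replicate 2) on 23955 named genes. Levels are counts scaled to a library total of 1000000 (CPM), and levels of different genes are compared as CPM per kilobase of the longest coding transcript (RPKM). Where genes are set side by side in CPM, this compares their shares of the counts, which grow with transcript length. A gene was called expressed at 1 CPM or more in both libraries, which is about 20 counts, and absent at 0 counts in both. A count of 0 allows up to 3 counts, or 0.145 and 0.148 CPM, for counting error only. By this rule 11854 genes (49.5%) were expressed, 7926 (33.1%) were at 0 in both libraries and 4175 lay between. The expressed genes held 99.9% of all counts, and their median level was 43.2 CPM or 13.4 RPKM, with an upper quartile of 30.9 RPKM. The gene lists below are set against these levels. Replicate 1 also carried transcripts of myeloid genes that were absent or much lower in replicate 2, which are described last, and a gene seen in replicate 1 alone was not called expressed.

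Among the expressed transcripts was Mir17hg, the host transcript of a microRNA cluster that runs from miR-17 to miR-92a and is known for its role in Hedgehog medulloblastoma. The sequences it encodes are shown for that reason. It had 173 counts (8.36 CPM) in replicate 1 and 184 counts (9.06 CPM) in replicate 2. Both values lie under the median of expressed genes, 43.2 CPM. Of the 4 host genes in the table whose symbols end in hg, 3 were expressed, and the other 2 of these took a smaller share of the counts: Mirlet7bhg at 2.61 and 2.46 CPM and Mir22hg at 1.26 and 1.23 CPM. The cluster lies on chromosome 14 of GRCm38.p6, on the plus strand. Its mature guide arms are given 5′ to 3′ from RefSeq, with the seed (bases 2 to 8) in capitals, in groups that share a seed; they were chosen after the level of the host was seen.

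mmu-miR-17-5p: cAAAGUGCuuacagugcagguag
mmu-miR-20a-5p: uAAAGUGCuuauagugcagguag
mmu-miR-18a-5p: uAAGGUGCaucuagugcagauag
mmu-miR-19a-3p: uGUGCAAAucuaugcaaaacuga
mmu-miR-19b-3p: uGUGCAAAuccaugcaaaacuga
mmu-miR-92a-3p: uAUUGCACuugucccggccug

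The 6 arms carry 4 seeds: miR-17 and miR-20a share AAAGUGC, and miR-19a and miR-19b share GUGCAAA. The arm of miR-17 starts at chr14:115043684-115043706 and that of miR-92a is at chr14:115044476-115044496. Poly-A libraries measure the host transcript and not mature miRNAs: 5 of the 6 hairpin genes were at 0 in both libraries and Mir17 had 1 count in replicate 1 and 0 in replicate 2.

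The most abundant transcripts of the cells were those of translation and glycolysis. By share of counts the leading gene was Eef1a1, the elongation factor that brings aminoacyl-tRNA to the ribosome, at 5008 CPM in replicate 1 and 4669 CPM in replicate 2. It was followed by Eef2 (3314 and 3387 CPM), the translocation factor, by the glycolytic enzymes Pkm (3303 and 3139 CPM) and Aldoa (3290 and 2902 CPM), and by the chaperone Hsp90ab1 (3045 and 2965 CPM). The range of Aldoa over the libraries overlapped those of Pkm and Hsp90ab1, so its place among them is undecided. The other genes among the first 20 were Eif4g2, Ldha, Rplp0, Nedd4, Rn45s, Pabpc1, Tubb5, Rpl4, H1f0, Hnrnpu, Actb, Rplp1, Gapdh, Rpl8 and Scd2. Rn45s, the precursor of ribosomal RNA, took 0.185% and 0.20% of the counts. No gene dominated the libraries: the 10 most abundant took 2.86% and 2.78% of the counts, and 43 genes reached 1000 CPM in both.

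Corrected for length, ribosomal proteins came to the fore. Rplp1, an acidic stalk protein of the large subunit, led with 3262 and 3092 RPKM, above Eef1a1 (2792 and 2603 RPKM). The range of Rps29, a small-subunit protein, overlapped that of Eef1a1 at 2781 and 2239 RPKM. Aldoa (2124 and 1873 RPKM), Rps15 (1913 and 1749 RPKM) and Rplp0 (1537 and 1479 RPKM) were also among the highest. The first 20 by RPKM also included Rpl8, Pkm, Ldha, Rps14, Rps12, Hsp90ab1, Mif, Rpl4, Eef2, Rpl13a, Gapdh, Rps26 and Rpl41. Of the 50 genes with the highest RPKM, 27 encoded ribosomal proteins and 5 glycolytic enzymes. The 79 expressed ribosomal protein genes together held 4.33% of the counts in replicate 1 and 4.12% in replicate 2.

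The glycolytic enzymes listed were expressed at high level. This list was chosen after its values were seen, so its median describes the list and is no independent support. Of 13 enzymes listed, 12 were expressed, with a median of 279 RPKM beside 13.4 for all expressed genes, and together they held 1.40% and 1.30% of the counts. Tpi1, which interconverts the triose phosphates, stood at 789 and 732 RPKM, and Gapdh at 1111 and 1036 RPKM. Mif, a cytokine with tautomerase activity and outside this list, was among the first 20 genes at 1198 and 1133 RPKM. Eno1 was the exception, with 5 and 2 counts. Enolase 1 has near-identical copies in the mouse genome, and the sources used here do not give how reads with several matches were counted, which leaves its low count uncertain as a level. The same limit holds for Gapdh, Aldoa, Eef1a1, Actb, the tubulins and ribosomal proteins, which also have processed copies.

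The 4 marker genes of the granule lineage and of Hedgehog medulloblastoma were all expressed far above the median gene. Atoh1, the proneural factor that defines granule neuron progenitors, had 7409 and 7750 counts, or 169 and 180 RPKM. Barhl1, a homeobox factor of the same lineage, had 171 RPKM in both libraries, and the cerebellar zinc-finger factor Zic1 had 128 and 124 RPKM. Gli1, the transcriptional effector and target of the pathway, had 104 and 116 RPKM. Among expressed genes ranked by RPKM, Atoh1 stood at percentile 97.6, Barhl1 at 97.5, Zic1 at 96.0 and Gli1 at 95.1. The markers of the labelled cell type were thus all present.

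Hedgehog ligands were absent or under the threshold, while most genes that receive and carry the signal were expressed. Of the 8 ligand and ligand-processing genes in the table, 2 were expressed, both low: Disp2 (1.79 and 1.77 CPM), a relative of the ligand-release factor Dispatched, and Scube2 (3.82 and 3.10 CPM), which helps release ligand. Shh and Dhh had 0 counts in both libraries. Ihh had 4 and 9 counts, which is 0.193 and 0.443 CPM.

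Of 9 receptors and antagonists, 8 were expressed, with a median of 27.0 RPKM. Smo, the membrane transducer, was the highest at 98.6 and 98.0 RPKM. Of the co-receptors that help ligand bind Patched, Boc stood at 83.5 and 87.1 RPKM and Gas1 at 75.8 and 71.4 RPKM, and their ranges did not overlap. Cdon, the relative of Boc, was close to the threshold at 1.55 and 1.58 CPM (0.206 and 0.210 RPKM). Ptch1, the receptor itself, was at 17.8 and 19.1 RPKM. The Ptch1 level is that of all transcripts counted at the gene: the table does not show which of them encode functional protein. Hhip, a decoy receptor that is also a target, stood at 13.5 and 15.7 RPKM. The member not called expressed, Lrp2, was under the threshold in replicate 1 only (0.580 and 1.13 CPM).

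Inside the cell, 19 of 21 components were expressed, with a median of 30.3 RPKM, and 9 lay above the upper quartile of all expressed genes. Prkar1a, the regulatory subunit of protein kinase A, was the highest at 129 and 126 RPKM. The catalytic subunits Prkaca (82.9 and 78.1 RPKM) and Prkacb (34.0 and 34.2 RPKM), which phosphorylate Gli2 and Gli3 and so restrain them, were also expressed. Sufu, which binds and holds Gli proteins, had 30.2 and 30.5 RPKM. Kif7, the kinesin of the cilium tip, had 6.77 and 7.0 RPKM, and Gpr161, a ciliary receptor that keeps protein kinase A active, had 3.3 and 3.54 RPKM. Kif3a, a motor subunit of ciliary transport, had 32.4 and 32.3 RPKM, and the basal body protein Ofd1 had 4.98 and 5.11 RPKM.

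Of the 3 Gli factors, Gli1 and Gli2 were expressed and Gli3 was not. Gli1 took 72.1% and 73.3% of the summed RPKM of the family. Gli2, the main activator downstream of Smoothened, took 27.9% and 26.7% with 40.0 and 42.2 RPKM. Gli3, the main repressor, had 0 counts in both libraries. Spop, an adaptor for Gli degradation, was the other component not expressed, with 15 counts in replicate 1 and 2 in replicate 2.

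Of 18 target genes listed, 14 were expressed, with a median of 43.4 RPKM. Ccnd1 and Ccnd2, the D cyclins that drive progenitors through G1, stood at 211 and 212 RPKM and at 125 RPKM in both libraries. Sfrp1, a secreted Wnt antagonist, had 118 and 128 RPKM. Mycn, the Myc factor of granule progenitors, had 24.7 and 23.2 RPKM, and Foxm1, a regulator of mitotic genes, had 58.0 and 59.7 RPKM. Of the targets known from other tissues such as ventral neural tube and mesoderm, 4 were at or near 0: Nkx2-2 and Nkx2-1 had 0 counts in both libraries, Foxa2 had 2 and 1, and Foxf1 had 2 and 0. Foxc2, a mesodermal factor, passed the threshold at 2.51 and 2.71 CPM. Igf2, a growth factor target, was low at 3.96 and 4.76 RPKM.

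**Figure D1:**
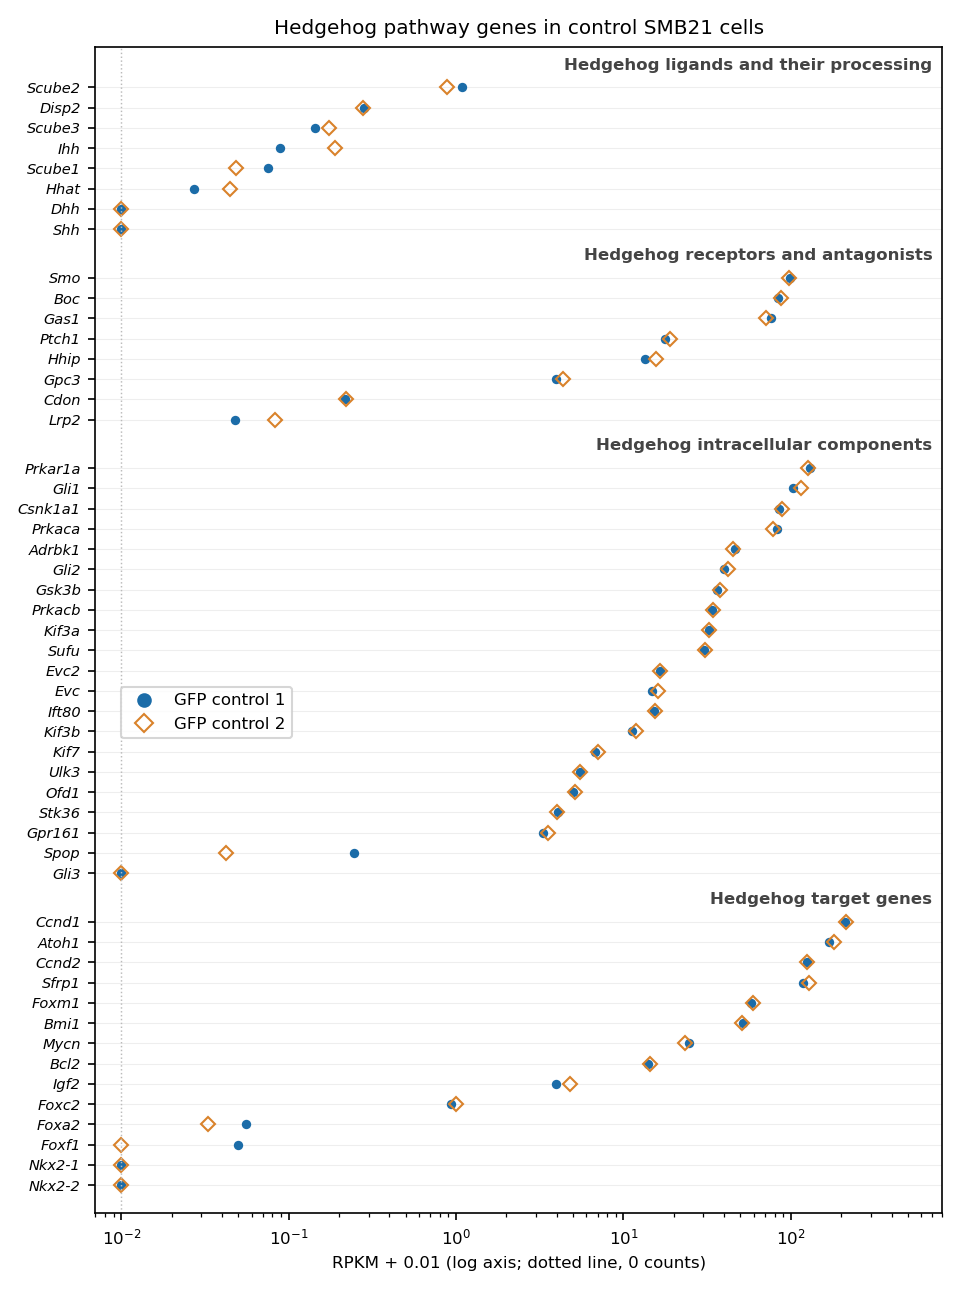
RPKM of the Hedgehog genes in GFP control 1 (filled circles) and GFP control 2 (open diamonds), on a log axis after adding 0.01, grouped by role and ordered by the mean; genes in several lists are drawn once and 1 gene is not drawn. Ligands lie at the left, with Shh and Dhh at 0 counts, while Smo, Boc and Gas1 lie between 71.4 and 98.6 RPKM and Gli3 is at 0 counts.

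Granule neuron progenitor genes were expressed as a list. Of 21 members, 19 were expressed, with a median of 27.9 RPKM beside 13.4 for all expressed genes, and 8 lay above the upper quartile. The highest was Cxcr4, the chemokine receptor that holds progenitors in the outer layer of the cerebellum, at 322 and 317 RPKM. Zic2 (113 and 107 RPKM) and the basic helix-loop-helix factor Nhlh1 (81.7 and 80.2 RPKM) followed Atoh1, Barhl1, Zic1 and Ccnd2. Pax6, expressed along the whole granule lineage, had 29.2 and 28.6 RPKM, and the hindbrain homeobox factor En2 had 18.2 and 18.4 RPKM. The exceptions were Meis2, a homeobox factor, with 0 counts in both libraries, and Unc5c, a netrin receptor, with 8 and 4 counts. In bulk RNA, fewer cells of a type and less RNA per cell cannot be told apart, here and in the lists that follow.

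Differentiation genes were mixed. Of 29, 22 were expressed, but with a median of 4.74 RPKM, and 7 lay above the median expressed gene. Rbfox3, which encodes the neuronal nuclear antigen NeuN, was the highest at 86.5 and 90.2 RPKM. The neurite protein Gap43 (44.0 and 35.5 RPKM), Dcx (18.1 and 18.3 RPKM), a microtubule protein of migrating neurons, and the synaptic organizer Cbln1 (31.7 and 31.4 RPKM) also lay above the median expressed gene. Neurod1, the differentiation factor of granule neurons, was low at 4.46 and 4.12 RPKM. Genes of mature neurons went both ways. Gabra6, a GABA receptor subunit, and Kcnd2, a potassium channel, had 0 counts in both libraries, as did the neuronal tubulin-binding gene Stmn2. The glutamate receptor genes Grin1, Grin2a, Grin2b and Grm4 were expressed, as were Cbln3, Syt1, Map2 and Calb2. Slc17a7, the vesicular glutamate transporter of granule neurons, was expressed close to the threshold with 28 and 32 counts (1.35 and 1.58 CPM).

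Other cell types of the cerebellum were represented by few genes. Of 16 GABAergic and Purkinje markers, 5 were expressed and 7 were at 0 in both libraries. The defining genes Pcp2, Gad2, Slc32a1, Pax2 and Skor2 had 0 counts, and Ptf1a had 1 and 0. Those expressed included the calcium channel gene Itpr1 (9.77 and 10.8 RPKM) and Lhx1 (10.9 and 10.1 RPKM). Of 8 unipolar brush cell and cerebellar nuclei markers, 3 were expressed, led by the homeobox factor Otx2 at 24.6 and 23.2 RPKM. Eomes, which defines unipolar brush cells, had 1.05 and 0.802 RPKM.

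Neural stem cell genes were expressed next to those of progenitors. Of 19 stem cell and astrocyte markers, 16 were expressed, with a median of 28.9 RPKM. Glul, glutamine synthetase, stood at 186 and 183 RPKM, the intermediate filament genes Vim at 183 and 168 RPKM and Nes at 56.4 and 64.0 RPKM, and the glial factor Sox9 at 53.3 and 55.0 RPKM. Gfap, the astrocyte filament, was expressed at 16.1 RPKM in both libraries and Sox2 at 26.9 and 27.3 RPKM. The astrocyte water channel Aqp4 had 0 counts in both libraries, and Aldh1l1 had 3 and 0. Fabp7, a marker of radial glia, was under the threshold at 10 and 3 counts.

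Of 12 oligodendrocyte lineage markers, 4 were expressed. Pdgfra, the growth factor receptor of oligodendrocyte progenitors and of mesenchyme, reached 38.7 and 36.8 RPKM, while the lineage factor Sox10 had 0 counts in both libraries, Olig2 had 12 and 15 counts and Olig1 had 3 and 5. Cnp stood at 12 and 11.5 RPKM, and the myelin genes Mog and Mbp at 0 counts in both and at 7 and 5 counts.

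Endothelial, mesenchymal and ependymal markers were few. Of 13 endothelial and pericyte markers 1 was expressed, Cdh5 at 0.339 and 0.432 RPKM, and Cldn5, Tie1, Pdgfrb and Rgs5 had 0 counts in both libraries. Of 13 fibroblast and mesenchymal markers 4 were expressed, led by the bHLH factor Twist1 (16.6 and 16.1 RPKM) and fibronectin, Fn1 (6.41 and 8.28 RPKM), while the collagens Col1a2 and Col3a1 and the proteoglycan Dcn had 0 counts. Of 11 motile cilia and ependymal markers 4 were expressed, among them the regulators Foxj1 (3.04 and 2.78 RPKM) and Rfx3 (6.45 and 6.50 RPKM), while the axonemal genes Tekt1 and Dnah5 had 0 counts.

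**Figure D2:**
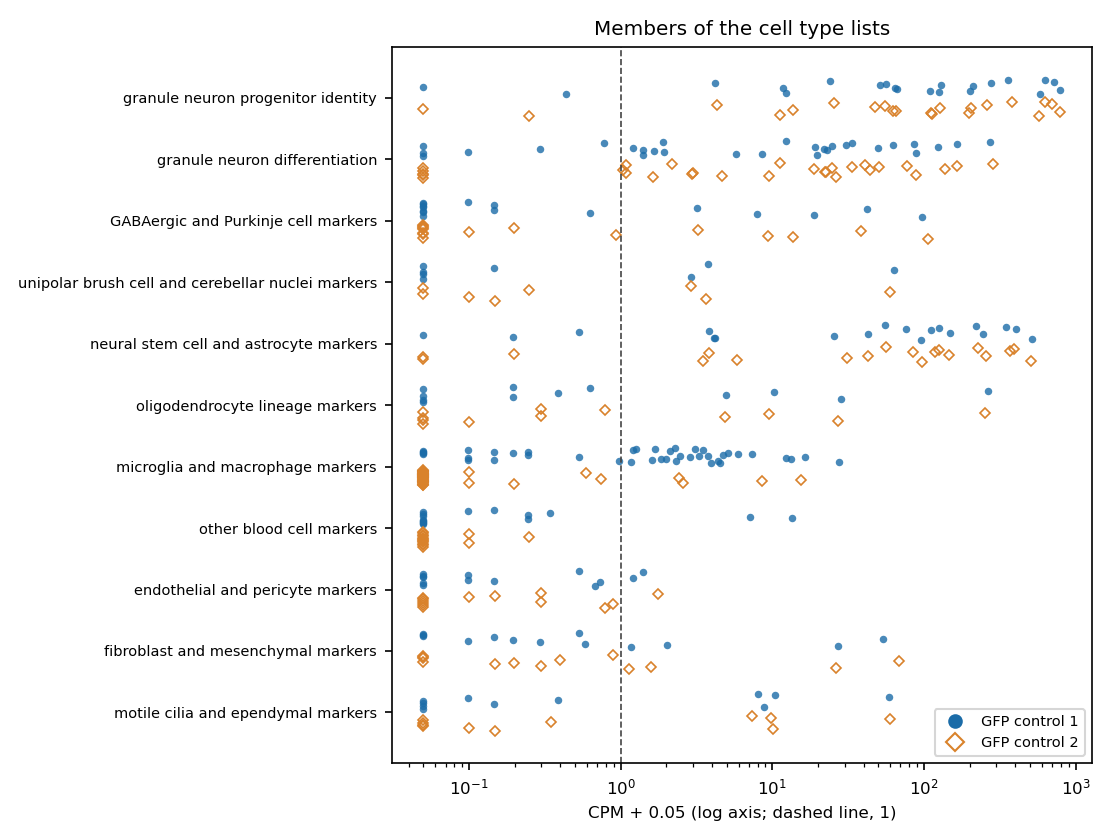
CPM of each member of 11 cell type lists in GFP control 1 (filled circles) and GFP control 2 (open diamonds), on a log axis after adding 0.05; the dashed line marks 1. Progenitor and stem cell genes reach the right of the axis, and 27 of the 41 microglia and macrophage markers lie right of the line in GFP control 1 but 4 in GFP control 2. Of all 23955 named genes, 12149 and 11972 reach 1 CPM in these libraries.

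Midbrain-hindbrain and forebrain patterning genes were each expressed at about the share of all named genes, 49.5%, and Hox genes well under it. Of 13 midbrain-hindbrain patterning genes, 6 were expressed, among them En2, Fgf8 (23.7 and 20.5 RPKM), the signal of the boundary between midbrain and hindbrain, and Irx2 (9.54 and 9.21 RPKM), while Pax2, Pax8 and Wnt1 had 0 counts. Of 14 forebrain and midbrain genes, 8 were expressed: besides Otx2 these included Lhx2 at 15.5 and 17.0 RPKM, Otx1 at 9.34 and 9.75 RPKM and Dlx1 at 5.68 and 6.07 RPKM. Emx1, Emx2, Nkx2-1 and Pitx3 had 0 counts in both libraries. Of 39 Hox genes, which mark positions behind the cerebellum, 3 were expressed and 26 were at 0 in both libraries. Hoxc4 alone took 85.8% and 86.4% of the summed RPKM of the Hox genes, with 11.5 and 12.1 RPKM.

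Of 50 gene families, 30 had a dominant member, defined as more than 50% of the summed RPKM of the family in both libraries. In 18 of them the same member was dominant whether levels were divided by the longest or the median coding transcript or not divided at all. Besides Gli1 and Hoxc4 these were Mycl, Cdk4, Pax6, Id2, Hes6, Tubb5, Tuba1a, Actb, Eef1a1, Ldha, Pkm, Aldoa, Mcl1, Slc17a7, Ncam1 and Igf2bp3. The remaining 12 depended on the scale.

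Among transcription factors, Mycl took 71.2% and 72.3% of the Myc family with 115 RPKM in both libraries, above Mycn and Myc (21.9 and 20.8 RPKM), whose ranges did not overlap. Pax6 took 93.0% and 93.4% of 9 Pax factors, of which 5 were at 0. Id2, a helix-loop-helix inhibitor of differentiation, took 98.7% and 99.2% of the Id proteins at 72.7 and 76.3 RPKM, while Id1, Id3 and Id4 were not expressed. Hes6 (147 and 142 RPKM), which counters the Notch effector Hes1, took 57.4% and 56.3% of the Hes and Hey factors. Hes1 itself stood at 75.5 and 80.4 RPKM, Notch1 at 18.3 and 21.1 RPKM and Notch2 at 21.1 and 22.8 RPKM. In the Notch ligand family Dll3 stood at 116 and 111 RPKM, Jag1 at 51.4 and 50.1 RPKM and Dll1 at 13.5 and 13.2 RPKM. Zic1 (47.9% and 48.4%) and Zic2 (42.3% and 41.7%) shared the Zic family, with neither over 50% per length.

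Sox18 was the highest Sox factor per length. It had 13457 and 13655 counts, 401 and 415 RPKM, and took 63.6% and 64.0% of the summed RPKM of 19 Sox factors, 12 of them expressed, but 38.0% on average without the length. Sox18 is known as a factor of endothelial development. Endothelial markers were at or near 0 in the same libraries, as given above. Sox9 and Sox1 followed with 8.44% and 8.49% and with 7.05% and 6.94%.

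Among structural families, Tubb5 took 81.0% and 82.0% of the beta tubulins, and the neuronal Tubb3 1.93% and 2.15%. Tuba1a took 70.2% and 71.1% of the alpha tubulins. Ldha, which makes lactate, took 92.4% and 92.7% of the lactate dehydrogenases, and Aldoa 98.4% and 98.2% of the aldolases. Pkm took all of the counts of the pyruvate kinases, since Pklr, the form of liver and red cells, was at 0 in both libraries. Hk2 led the hexokinases with 76.2% and 75.7%, a lead that passed to Hk1 when the median transcript length was used. Igf2bp3 took 98.5% and 97.7% of a family of oncofetal RNA-binding proteins at 4.81 and 5.09 RPKM. The call for Slc17a7 rests on 28 and 32 counts.

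**Figure D3:**
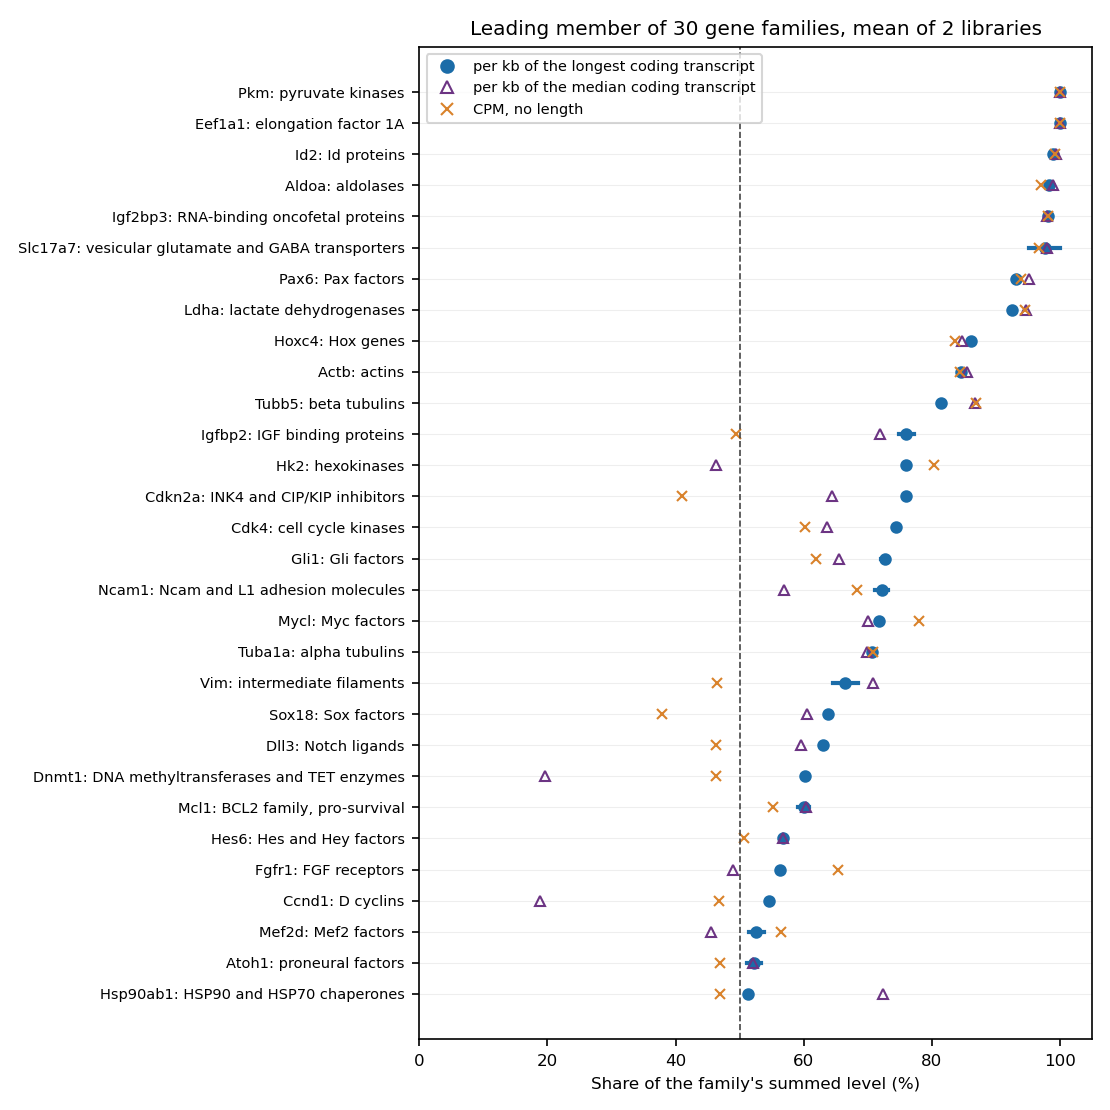
Share of the family's summed level held by its leading member in the 30 families with a dominant member, as the mean of the 2 libraries on 3 scales; the blue bar joins the 2 libraries and the dashed line marks 50%. Eef1a1, Pkm and Id2 stand near 100% on every scale, while the symbols for Ccnd1, Dnmt1 and Cdkn2a lie on both sides of the line.

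Proliferation genes were expressed at high level. All 30 G1/S and DNA replication genes were expressed, beside 49.5% of all named genes, with a median of 53.9 RPKM, and 19 lay above the upper quartile of expressed genes. All 27 G2/M and mitosis genes were expressed too, with a median of 53.2 RPKM, and 20 lay above the upper quartile. Levels are means over all cells of a culture, so they do not give the share of cells in a phase.

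Cdk4, the kinase that D cyclins activate, was the highest G1/S gene at 326 and 328 RPKM and took 74.7% and 74.2% of the cell cycle kinases; its relative Cdk6 had 6.53 and 6.65 RPKM. Of the D cyclins, Ccnd1 took 54.3% and 55.0%, Ccnd2 32.2% and 32.4% and Ccnd3 13.5% and 12.6%. The order of the first pair depends on the length used: with the median coding transcript Ccnd2 took 70.6% and Ccnd1 18.8% on average. Their shares of the counts were close, with Ccnd1 at 790 and 794 CPM and Ccnd2 at 791 CPM in both. The replicative helicase was expressed in full, from Mcm3 (98.3 and 96.3 RPKM) to Mcm6 (245 and 241 RPKM), as was the clamp Pcna (222 and 208 RPKM). The lowest gene of the list was E2f2 at 4.14 and 4.72 RPKM, whereas E2f1, which turns on replication genes, had 58.0 and 56.4 RPKM.

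In the mitotic list Top2a, the topoisomerase that untangles chromosomes, led with 125 and 135 RPKM. Ccna2 (109 and 115 RPKM), Cdc20 (103 and 100 RPKM) and Hmgb2 (99.5 and 90.7 RPKM) followed. Cdk1, the mitotic kinase, had 57.4 and 58.3 RPKM, Plk1 61.5 and 58.8 RPKM and the proliferation marker Mki67 37.4 and 41.3 RPKM.

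Of 14 cell cycle inhibitors, 11 were expressed, with a median of 16.7 RPKM. Cdkn2a, which encodes the tumour suppressors p16 and p19ARF, was the highest at 231 and 221 RPKM, with 4284 and 4020 counts. Trp53, which p19ARF stabilizes, had 138 and 143 RPKM. Cdkn1a, the p53 target p21, was low and differed between the libraries: 225 counts (5.23 RPKM) in replicate 1 and 138 counts (3.27 RPKM) in replicate 2. Cdkn1b, p27, had 57.3 and 55.2 RPKM, and the neighbour of Cdkn2a, Cdkn2b, had 11 and 0 counts. Cdkn2a took 75.8% and 75.9% of the INK4 and CIP/KIP inhibitors per length, but without the length Cdkn1b led with 51.9% on average. The retinoblastoma proteins Rb1, Rbl1 and Rbl2 had similar levels, with shares from 31.7% to 35.9%.

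**Figure D4:**
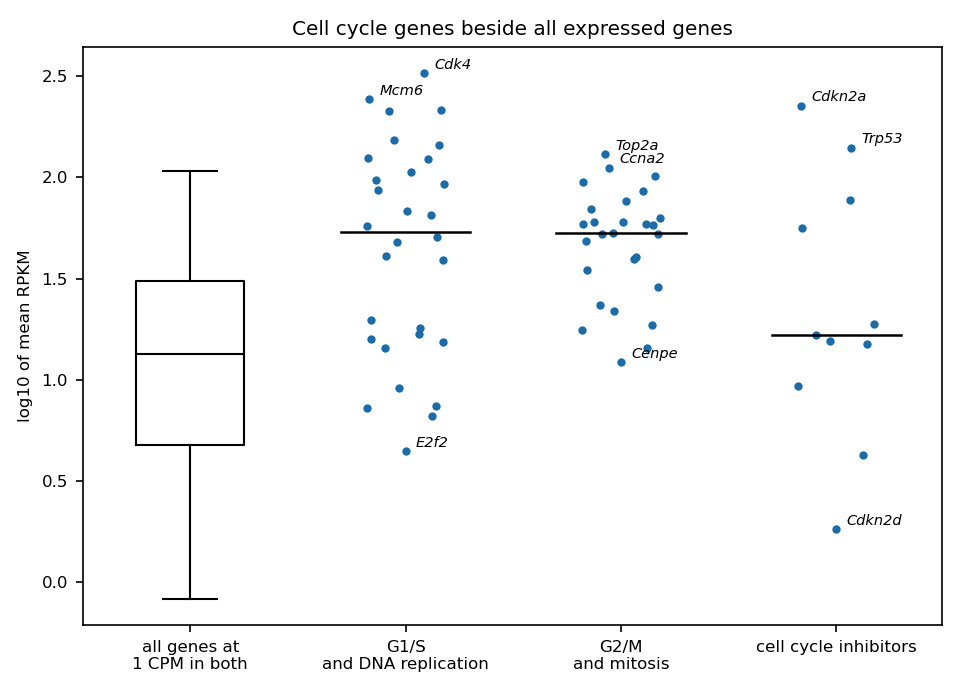
Log10 of mean RPKM for all expressed genes (box, quartiles; whiskers, percentiles 5 and 95) and for each expressed member of the cell cycle lists (points; line, median). Both proliferation lists have medians above the upper quartile of all expressed genes, and among the inhibitors Cdkn2a and Trp53 lie highest.

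The 2 libraries differed in a set of myeloid genes that were higher in replicate 1, many of them with no count in replicate 2. Microglia and macrophage markers summed to 143 CPM in replicate 1 and 30.2 CPM in replicate 2. Of 41 markers, 4 were expressed in both libraries: Apoe (12.2 and 15.4 CPM), the lipid carrier that astrocytes also make, Coro1a (13.3 and 8.52 CPM), Plek (4.35 and 2.51 CPM) and Cd68 (3.24 and 2.36 CPM). Another 23 reached 1 CPM in replicate 1 only and none in replicate 2 only. Of all 23955 named genes, 12149 reached 1 CPM in replicate 1, 11972 in replicate 2 and 11854 in both. Without the 4 markers expressed in both, the sums were 110 and 1.48 CPM. A count was seen for 37 of the 41 in replicate 1 against 9 in replicate 2, beside 15519 and 14923 of all named genes.

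Among the defining myeloid genes, Ptprc, the leukocyte antigen CD45, had 46 counts in replicate 1 and 0 in replicate 2. Itgam, the integrin CD11b, had 63 and 0 counts, Spi1, the myeloid factor PU.1, had 34 and 0, and Csf1r, the macrophage growth factor receptor, had 25 and 0. Lyz2, lysozyme, had 121 and 0 counts and Laptm5 104 and 0. The microglial genes Cx3cr1 and P2ry12, with C1qa and Lyz1, were at 0 in both libraries, and Tmem119 had 3 and 0 counts. The markers of other blood cells that reached 1 CPM were S100a8 (147 and 0 counts) and S100a9 (279 and 0 counts), the calprotectin pair of neutrophils. Of the endothelial markers, Flt1 had 24 and 0 counts.

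Compared gene by gene, 154 of 12315 genes with enough counts (1.25%) were at least 4-fold higher in replicate 1 and 0 (0%) in replicate 2. With 1 library against 1 there is no test. Of the 27 myeloid markers among these genes, 22 were in the 154. Of these markers, 19 had 0 counts in replicate 2 and reached the count minimum through replicate 1 alone. Against the floor of 3 counts, that minimum already exceeds 4-fold, so their call followed from the filter. The 22 of 27 therefore describes the list and cannot be set against the 1.25%. Of the 154, 91 had no count in replicate 2. The ratio of Chil3, a chitinase-like protein of macrophages and neutrophils, was 369 (exact 95% counting interval 179 to 920), from 2635 and 7 counts. The chemokine Ccl22 had 1177 and 3 counts, a ratio of 385 (131 to 1869), and Cd74, the invariant chain of MHC class II, 571 and 3 counts, a ratio of 187 (63.6 to 908). Mmp12, the macrophage elastase, had 1 count in replicate 2 and a measured ratio of 344 (61.4 to 13642). Against the floor of 3 counts, by which the genes were ordered, its ratio was 115.

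The other 6 of the 10 genes furthest apart had 0 counts in replicate 2, so their ratios are lower bounds against 3 counts. Ccl17, a chemokine of dendritic cells, was at least 138-fold higher in replicate 1. S100a9 was at least 91.3-fold higher, the leukocyte plastin Lcp1 at least 75.9-fold, Plet1 at least 66.1-fold, the chemokine Ccl6 at least 57.6-fold and the protease Ctss at least 49.7-fold. Granule genes of eosinophils and cytotoxic cells were among the 154 as well, chosen here after their values were seen: Prg2 had 75 and 0 counts, Epx 34 and 0, and Gzma 41 and 0.

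The 154 genes held 0.0664% of the counts of replicate 1 and 0.00165% of those of replicate 2. Of all 11854 expressed genes, 2 were among the 154, Tgm2 (6.14 and 1.13 CPM) and Mgl2 (14.1 and 3.20 CPM). No member of the Hedgehog, granule progenitor, stem cell or cell cycle lists was among the 154, an absence shared by nearly all expressed genes. The other libraries of the series, given only as a check, held 28.1 to 39.1 CPM of the 41 myeloid markers, of which the 4 expressed in both control libraries made up 27.0 to 31.9 CPM. Without those 4, Ofd1 CRISPR 1 held 7.24 CPM, above the 1.48 CPM of replicate 2 and under the 110 CPM of replicate 1. It had a count for 30 of the 41 markers and for 77 of the 91 genes at 0 in replicate 2, and held Ccl22 at 8.94 CPM. Ofd1 CRISPR 3 had a count for 23 markers and 58 of those genes. The source of these counts was not tested.

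Outside that set the libraries were close. Over expressed genes, log2(CPM + 1) correlated at r = 0.997 across genes, which are not independent replicates. The median gene at 1 to 5 CPM differed 1.16-fold, and at 100 to 1000 CPM 1.03-fold. The counts still differed by more than sampling noise: chi-square per degree of freedom was 4.0 over 13452 genes and 3.09 without the 154. This value cannot show how independent the libraries are, and they were counted as 2 samples by their labels.

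**Figure D5:**
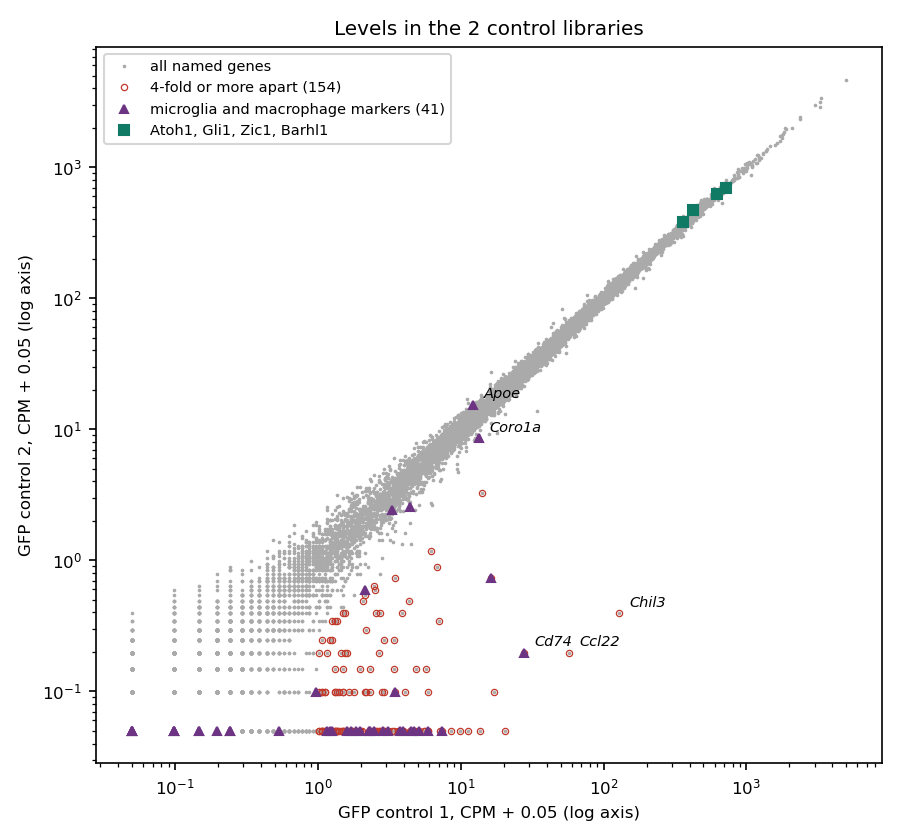
CPM of all named genes in GFP control 1 (x axis) and GFP control 2 (y axis), each after adding 0.05 and on log axes; red circles mark the 154 genes at least 4-fold apart and triangles the 41 microglia and macrophage markers. Most triangles lie along the bottom, at 0 counts in GFP control 2, while Atoh1, Gli1, Zic1 and Barhl1 lie on the diagonal.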

How the data were processed

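The authors deposited unnormalized counts, whole numbers for each gene symbol in each library. Per the labels' protocols, stranded poly-A libraries from 500 ng of RNA were sequenced in 1 run, single-end, 75 bases. The submitters' processing notes name STAR, DESeq2 and mm9 without version or role. The counter, annotation and strand setting were not given in the sources used here. Of 24047 rows, 92 spike-in rows were left out; no mitochondrially encoded gene was analysed here.

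Counts were divided by library totals (CPM) and by the longest coding transcript of GENCODE M21 (RPKM). A length was matched for 98.4% of genes, by symbol or, for 911 of them, by a RefSeq synonym. The median transcript had been planned, but short fragments made it too small, so it served as the alternative. With 1 group of 2 libraries no test was run. Between the libraries, a gene was called at 4-fold and 20 counts in the higher one, with the lower set to at least 3 counts, and intervals were exact. The code was tested on simulated data. Reads carry no molecular identifiers, so intervals cover counting error only. Python 3.11.15, pandas 2.3.3 and scipy 1.17.1 were used.

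The libraries, gene lists and families were chosen with earlier results of these data known, and the glycolytic list after its values were seen. Named are the 20 most abundant genes by CPM and by RPKM, list and family members that answer the point made, with the dominant ones, and the 10 genes furthest apart between the libraries; a few genes under this rule are not reported here.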

Additional observations from a re-analysis of the deposited data

How the results depend on the processing

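The counts of expressed genes moved little with the settings tried: 12370 at 0.5 CPM, 10481 at 5 CPM, 11854 with TMM-scaled totals, and 11972 to 12149 when either library was left out, beside 11854. The microglia and macrophage list moved most. It had 4 expressed members, 2 at 5 CPM, and 4 to 27 when either library was left out, the 27 being those of replicate 1 alone. Genes higher in replicate 2, 0 at 4-fold and 20 counts, were 28 at 2-fold and 8 at 10 counts, while those higher in replicate 1 were 154, 218 and 213. The number of families with a dominant member was 30, 33 with the median transcript length and 27 without a length, and of the 30 members 25 and 21 stayed dominant. Of the 15 other list counts, 14 stayed within 1.5 times at 0.5 CPM, 11 at 5 CPM, 15 without replicate 1 and 13 without replicate 2. The 2 that moved without replicate 2 were other blood cell markers (0 to 2) and endothelial markers (1 to 2); at 5 CPM they were Hedgehog ligands (2 to 0) and unipolar brush cell (3 to 1), endothelial (1 to 0) and fibroblast markers (4 to 2), and at 0.5 CPM endothelial markers (1 to 3).

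No paired analysis was possible because only 1 group was described and no test was run. With 2 libraries, about 20 counts at 1 CPM and a floor of 3 counts, levels near the threshold are imprecise: the gene at percentile 95 of those at 1 to 5 CPM differed 1.65-fold between the libraries.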

Other observations

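Further families included regulators of chromatin, survival and nutrient uptake. Of 11 class I and II histone deacetylases, 10 were expressed, and the ranges of Hdac3 (87.2 and 84.9 RPKM) and Hdac2 (87.1 and 82.5 RPKM) overlapped. All 6 PRC2 genes, which maintain the repressive H3K27 methyl mark, were expressed, with the catalytic subunit Ezh2 at 74.2 and 76.4 RPKM and its relative Ezh1 at 11.2 and 10.7 RPKM. The maintenance DNA methyltransferase Dnmt1 stood at 71.1 and 72.5 RPKM, and the de novo enzymes Dnmt3a at 14.0 RPKM in both libraries and Dnmt3b at 2.01 and 1.69 RPKM. All 4 nuclear factor I genes were expressed, led by Nfib at 90.0 and 95.6 RPKM. Among survival genes of the BCL2 family Mcl1 led with 74.6 and 72.8 RPKM, and among death genes Bok with 98.3 and 98.9 RPKM. The receptor Fgfr1 stood at 54.4 and 56.3 RPKM and the glucose transporters Slc2a3 at 49.4 and 47.2 RPKM and Slc2a1 at 41.2 and 34.7 RPKM.

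Xist and Y-linked transcripts were both near 0. Xist, which silences an X chromosome in female cells, had 3 counts in each library, and the Y-linked genes Ddx3y, Kdm5d, Eif2s3y and Uty had at most 9 counts in either library. Their X-linked relatives were expressed: Ddx3x stood at 102 and 104 RPKM and Kdm5c at 33.8 and 34.8 RPKM.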
